A study of Mus musculus with 36 samples.

Results

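Genes of thermogenic fat and of lipid and glucose metabolism were followed through the chemical conversion of mouse fibroblasts into photoreceptor-like cells: Ucp1, Cidea, Elovl3, Gpd1, Pck1 and Ppargc1a. These 6 of the 15289 genes in the deposited expression table were chosen by name as enzymes or markers of thermogenic fat, lipid synthesis and gluconeogenesis, several of them because their values were high at day 8. Their day 8 levels are therefore a description, no p-value of a comparison that holds day 8 is given for them, and nothing is read from their calls there. They were read in all 33 libraries.

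All libraries came from mouse cells or tissue labelled as the Nrl-GFP strain, in which the promoter of the rod gene Nrl drives a green fluorescent reporter. The untreated start was passage 2 fibroblasts from mouse embryos (MEF, n = 3). The treated cultures received 5 chemicals, not named in the labels, in photoreceptor induction medium. Intermediates were sampled on day 5 (n = 3) and on day 8 (n = 3), and the reprogrammed cells, called CiPC, on day 11 (n = 3). Isolated rods covered postnatal days 2 (P2, n = 2), 4 (P4, n = 2), 5 (P5, n = 3), 6 (P6, n = 3), 10 (P10, n = 4), 14 (P14, n = 3) and 28 (P28, n = 4). Rods of the other ages were reused from an older series, although the labels of P10 replicate 3 and P14 replicate 3 name no older sample, so for P5 the age and the series cannot be told apart. The labels' protocol states a sort on reporter expression before RNA extraction for all samples and does not say which gate was used for MEF or the intermediates. The labels do not state whether replicates are separate cultures or separate animals, and p-values therefore measure only the spread between these libraries. In such bulk RNA, fewer cells of a type and less RNA per cell cannot be told apart. Summed values of the deposited normalized CPM, reads of a gene relative to the library's size, ran from 719752 to 2277242 per library, 1.96% to 19.1% of them mitochondrial, and the read counts behind them are unknown.

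In the GRCm38 annotation (GENCODE M21) all 6 are protein-coding genes. Ucp1 lies on chromosome 8 at 83290352-83298452 on the forward strand and Pck1 on chromosome 2 at 173153048-173159273 on the forward strand. Ppargc1a spans chromosome 5 at 51454250-51567726 on the reverse strand. Elovl3 lies on chromosome 19 at 46131897-46135694, Gpd1 on chromosome 15 at 99717515-99725005 and Cidea on chromosome 18 at 67343604-67367785, each on the forward strand.

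Brown and beige adipocytes burn fat to make heat. The mitochondrial carrier UCP1 lets protons return across the inner membrane without making ATP, and the coactivator PGC-1alpha, product of Ppargc1a, drives the mitochondrial and oxidative genes that feed it. Such cells also store fat as many small droplets, on which CIDEA sits, and they lengthen fatty acids with ELOVL3, an enzyme best known from brown fat and skin glands. Glycerol-3-phosphate, the backbone of stored triglyceride, is made from dihydroxyacetone phosphate by the cytosolic dehydrogenase GPD1, or from smaller precursors by glyceroneogenesis, in which PCK1, the cytosolic phosphoenolpyruvate carboxykinase, is the key step. In the retina, PGC-1alpha is known as a regulator of mitochondrial content and of the antioxidant response, whereas UCP1, CIDEA and ELOVL3 are not characteristic of rods.

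The cyclic AMP pathway that activates thermogenic fat and gluconeogenesis acts in part through promoters of Ucp1, Pck1 and Ppargc1a, so the 250 bases before the RefSeq transcription start of these 3 genes are shown. RefSeq (GRCm38.p6) places these windows at chr8:83290098-83290347 on the forward strand for Ucp1, chr2:173152823-173153072 on the forward strand for Pck1 and chr5:51567726-51567975 on the reverse strand for Ppargc1a. The last lies upstream of the outermost of the 3 annotated transcription starts of its protein-coding transcripts. The outer starts are 13835 bases apart, and windows at the inner ones were not searched. Capitals mark the CRE half-site TGACG, which reads CGTCA on the other strand, the nuclear receptor half-site AGGTCA and the GC box GGGCGG.
Ucp1: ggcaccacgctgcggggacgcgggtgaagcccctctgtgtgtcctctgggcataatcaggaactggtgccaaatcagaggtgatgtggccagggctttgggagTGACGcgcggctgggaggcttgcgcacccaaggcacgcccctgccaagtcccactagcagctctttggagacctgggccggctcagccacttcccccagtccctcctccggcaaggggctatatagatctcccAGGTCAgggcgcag
Pck1: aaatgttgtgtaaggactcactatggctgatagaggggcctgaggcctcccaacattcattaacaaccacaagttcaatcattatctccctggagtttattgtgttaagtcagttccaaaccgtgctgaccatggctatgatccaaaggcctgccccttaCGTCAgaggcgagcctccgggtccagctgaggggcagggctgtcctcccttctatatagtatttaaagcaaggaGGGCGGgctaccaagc
Ppargc1a: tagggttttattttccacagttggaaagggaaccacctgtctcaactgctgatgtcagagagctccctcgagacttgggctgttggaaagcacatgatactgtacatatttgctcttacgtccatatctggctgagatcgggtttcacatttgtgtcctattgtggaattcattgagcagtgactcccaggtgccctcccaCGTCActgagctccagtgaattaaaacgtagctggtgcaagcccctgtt
Each of the 3 windows held a CRE half-site, at -147 to -143 in Ucp1, -90 to -86 in Pck1 and -49 to -45 in Ppargc1a, counted in bases from the transcription start. Searched on both strands, this motif was in 17.77% of the 32851 mouse promoter windows of the same length. The AGGTCA of Ucp1 stood at -14 to -9 and was found in 14.02% of windows, and the GGGCGG of Pck1 at -16 to -11 was found in 32.74%. The complete CRE TGACGTCA (1.55% of windows), the C/EBP palindrome TTGCNNCAA (1.74%) and the TATA box TATAAA (12.37%) matched none of the 3 windows. For Ppargc1a this covers the outermost start only. The Pck1 window ends inside the annotated gene, and its GC box lies there. Its RefSeq start matched that of a transcript annotated with a retained intron. Promoter windows of Elovl3, Gpd1 and Cidea were not used here. These matches describe letters in the windows only.

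Of the 6 genes, 5 had their highest values in the 3 day 8 libraries, and Ppargc1a, highest in P28 rods on the deposited scaling, did not. Ucp1, the proton carrier, stood at 118, 123 and 118 CPM in the 3 day 8 libraries (mean 120 ± 2.65, SD, n = 3). In MEF it was 0.0833 CPM in replicate 1 and listed at 0 in the others. At day 5 it was 0.0749, 0.0757 and 0 CPM, and in CiPC it was 0.22, 0.327 and 0.229 CPM. Day 8 thus stood alone: the lowest day 8 library was 101-fold above the highest of the other 30 libraries, a P6 rod library at 1.18 CPM. The log2 change from day 5 to day 8, on the log2(CPM + 1) scale used throughout, was 6.85 ± 0.09 (SE), the highest of 13259 genes.

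Cidea, which promotes the fusion and growth of lipid droplets, was also high at day 8 alone. It was 17.6, 19.2 and 17.9 CPM at day 8 (18.2 ± 0.813), against 0.561, 0.282 and 0.258 CPM at day 5. It was listed at 0 in all 3 MEF libraries and read 0.0393, 0 and 0.0358 CPM in CiPC. No rod library exceeded 0.114 CPM. The groups did not overlap at day 8, where the lowest library was 31.4-fold above the highest other one. Its log2 change from day 5 was 3.82 ± 0.12, rank 17 of 13259.

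Elovl3, which elongates saturated and monounsaturated very long chain fatty acids, read 60.1, 64.8 and 57.1 CPM at day 8 (60.7 ± 3.85). The day 5 libraries held 0.0761, 0.345 and 0.0411 CPM, the MEF libraries 0.0424, 0 and 0.0421 CPM and the CiPC libraries 0.0372, 0.166 and 0.166 CPM. It was listed at 0 in 18 of the 30 libraries outside day 8, including all P4, P5 and P28 rods. The groups did not overlap, and the lowest day 8 library was 166-fold above the highest other one, the day 5 library at 0.345 CPM. The log2 change from day 5 was 5.75 ± 0.12, rank 2.

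Pck1 showed the same shape, high at day 8 alone. It was 52.2, 53.1 and 55.3 CPM at day 8 (53.6 ± 1.6), after 0.277, 0.519 and 0.548 CPM at day 5 and 0, 0.163 and 0.132 CPM in MEF. By day 11 the CiPC libraries read 0, 0.0696 and 0.0352 CPM. The lowest day 8 library stood 95.3-fold above the highest other library, and the log2 change from day 5 was 5.24 ± 0.11, rank 4.

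Gpd1, the cytosolic glycerol-3-phosphate dehydrogenase, read 377, 311 and 400 CPM at day 8 (363 ± 46.2), with the widest relative spread of the 6 genes there, a coefficient of variation of 12.7% against 2.21% for Ucp1. Unlike the 4 genes above, it was above 0 in every culture library. It was 1.17, 0.962 and 1.21 CPM in MEF (1.11 ± 0.133), 7.48, 6.97 and 8.19 CPM at day 5 (7.55 ± 0.611) and 25.3, 22.4 and 17.6 CPM in CiPC (21.8 ± 3.89). No 2 of these 4 groups overlapped, and the order of levels was MEF, day 5, CiPC and day 8. Day 8 was 48.1 times day 5 as a ratio of mean CPM, the log2 change was 5.41 ± 0.10 (rank 3), and CiPC held 6.00% of the day 8 level.

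Ppargc1a, the coactivator gene, departed from the others. It was 0.305, 1.07 and 0.345 CPM in MEF (0.574 ± 0.432), 18.8, 25.4 and 20.3 CPM at day 5 (21.5 ± 3.45) and 51.7, 52.7 and 43.9 CPM at day 8 (49.4 ± 4.8). In CiPC it was 8.78, 8.78 and 8.38 CPM (8.65 ± 0.234). The 4 culture groups did not overlap, but 9 rod libraries lay at or above the lowest day 8 value, and it was above 0 in all 33 libraries. Day 8 was 2.3 times day 5, with a log2 change of 1.17 ± 0.11 and rank 354 of 13259. The mean at day 5 was 37.4 times that of MEF, or 66.0 times without MEF replicate 2, the library at 1.07 CPM. For this gene and those above, the share of all genes whose groups also did not overlap was not counted. Differences were common: an unadjusted p under 0.05 in limma was met by 11139 of 13598 genes at day 5 against MEF. In CiPC against day 8 it was met by 10591 of 13792. The lack of overlap is thus not read as a trait of these genes.

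**Figure D1:**
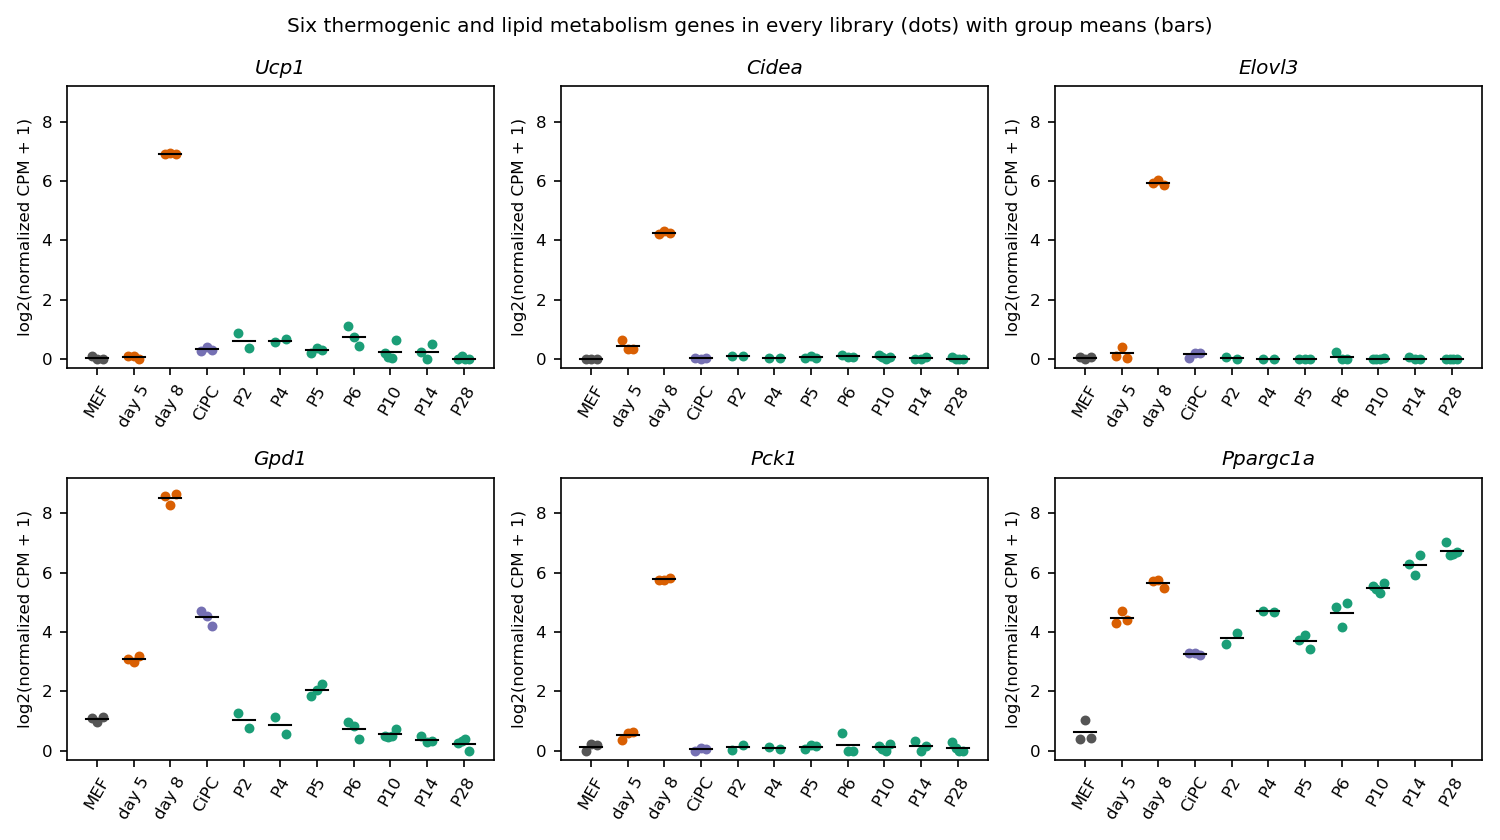
Each panel plots 1 gene, with log2(normalized CPM + 1) on the y axis and the 11 groups on the x axis; dots are libraries and bars are group means. Ucp1, Cidea, Elovl3, Gpd1 and Pck1 peak in the 3 day 8 libraries, whereas Ppargc1a is highest in P28 rods (95 to 128 CPM) on the deposited scaling.

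Per kilobase of merged exons, which allows levels of different genes to be set side by side, Gpd1 stood highest at day 8 with 122 CPM per kb. Ucp1 followed with 73.2 CPM per kb and Elovl3 with 30.7 CPM per kb. Cidea at 16.4, Pck1 at 15.6 and Ppargc1a at 7.50 CPM per kb were the lowest. Ppargc1a reached 16.1 CPM per kb in P28 rods.

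Since the genes were chosen on their day 8 values, nothing is read from their calls in comparisons that hold day 8. By the rule for a called gene, a Benjamini-Hochberg adjusted p under 0.05 in limma together with a fold of at least 2, all 6 genes were above the line at day 8 against day 5, where 3.61% of the 13259 genes tested were called higher and 6.61% in either direction. Ucp1, Elovl3, Pck1 and Cidea passed the filter of 1 CPM in 3 libraries through the day 8 libraries alone. The same held against MEF, where 16.4% of genes were called higher. All 6 were on the lower side in CiPC against day 8, where 16.6% of genes were called lower. Against MEF the log2 changes at day 8 were 7.42 ± 0.10 for Gpd1, 6.88 ± 0.09 for Ucp1, 5.91 ± 0.10 for Elovl3, 5.64 ± 0.10 for Pck1, 5.03 ± 0.18 for Ppargc1a and 4.27 ± 0.10 for Cidea. From day 8 to CiPC they were -6.59 ± 0.09 for Ucp1, -5.78 ± 0.10 for Elovl3, -5.72 ± 0.09 for Pck1, -4.23 ± 0.10 for Cidea, -4.00 ± 0.14 for Gpd1 and -2.38 ± 0.09 for Ppargc1a. For Ucp1, Elovl3, Pck1 and Cidea the CiPC values lay below 0.33 CPM, while Gpd1 was at 17.6 to 25.3 CPM there and Ppargc1a at 8.38 to 8.78 CPM.

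Comparisons without day 8 give p-values for the genes, with a limit. MEF and day 5 were the low side of the day 8 rises on which several genes were chosen. The genes and tests were also chosen with earlier results known, so these p-values are not independent of the choice. Only Gpd1 and Ppargc1a, 2 of the 6, were high enough to enter these comparisons, because the others did not reach 1 CPM in 3 libraries, or in 2 for the rod age fit. At day 5 against MEF both rose, beside 14.7% of all genes tested called higher. Ppargc1a rose by 3.86 ± 0.19 on the log2 scale (limma, adjusted p = 4.27e-08) and Gpd1 by 2.01 ± 0.11 (adjusted p = 8.06e-08), each in 3 of 3 libraries above all MEF libraries. Ppargc1a reached 1 CPM in only 1 MEF library and so passed the filter through the day 5 libraries. With no filter its change was the same, with an adjusted p of 1.38e-07, and that of Gpd1 had an adjusted p of 1.74e-07. Their ranks from the top among the 13598 genes that passed the filter were 171 and 690.

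In CiPC both genes were also above MEF, in a comparison that shares its MEF libraries with that of day 5 and in which 16.5% of genes were called higher. Gpd1 rose by 3.42 ± 0.14 (limma, adjusted p = 4.04e-08), to 19.5 times its MEF mean, and Ppargc1a by 2.65 ± 0.18 (adjusted p = 1e-06), to 15.1 times, or 26.6 times without MEF replicate 2. Ppargc1a passed the filter through the CiPC libraries here, and with no filter its adjusted p in limma was 1.71e-06. The values of the genes side by side were 7.55 CPM at day 5 and 21.8 CPM in CiPC for Gpd1, and 21.5 CPM and 8.65 CPM for Ppargc1a. The order of day 5 and CiPC was thus opposite in these 2 genes. That difference between days 5 and 11 was not tested.

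Against rods of P5, the age from the same series as the cultures, Gpd1 was higher in CiPC by 2.45 ± 0.15 (limma, adjusted p = 1.92e-07), with every CiPC library (17.6 to 25.3 CPM) above every P5 library (2.62, 3.1 and 3.7 CPM). There 43.3% of genes were called, 24.8% higher and 18.5% lower, and the higher share of the calls was 57.37%, or 46.73% after quantile normalization. Ppargc1a read 12.3, 13.8 and 9.85 CPM in P5 rods, all above the CiPC libraries. Its log2 change of -0.42 ± 0.12 had an adjusted p of 0.00981 in limma but did not reach a fold of 2. The 4 remaining genes were at or below 0.33 CPM in both CiPC and P5 rods. CiPC also differed from P5 rods in rod markers, whose 8 genes summed to 367 to 374 CPM in CiPC and 6648 to 7046 CPM in P5 rods, and the part of this in the values of Gpd1 and Ppargc1a was not tested.

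In rods of the older series, Ppargc1a rose with age. It read 11.0 and 14.8 CPM at P2, 25.3 and 24.6 CPM at P4, and 27.7, 16.8 and 30.1 CPM at P6. It went on to 45.8, 42.2, 38.8 and 49.7 CPM at P10, to 77.8, 59.1 and 95.1 CPM at P14 and to 128, 94.7, 98.5 and 103 CPM at P28. On the deposited scaling P2 lay below P4, P6 below P10 and P10 below P14 with no overlap, while P4 lay within P6 and the highest P14 library passed the lowest P28 library. Over the whole range from P2 to P28 the fitted log2 change was 3.08 ± 0.24 (limma slope on log2 age, n = 18, adjusted p = 1.23e-09), and the P28 mean of 106 ± 15.1 CPM was 8.25 times that of P2 and 2.15 times that of day 8 on the deposited scaling. The columns of the table sum to 1928256 to 2277242 CPM in P28 rods, 719752 to 746009 in P2 rods and 1005445 to 1010087 at day 8. As shares of these sums, an alternative chosen after seeing the data, the same ratios were 2.95 and 1.05. The P14 columns sum to less than those of P28, 1022875 to 1435384 CPM, so the order of P14 and P28 also rests on the deposited scaling. As shares of the sums the P14 mean, with replicate 3 highest, lay above that of P28. The P6 columns sum to 781491 to 835398 CPM and those of P10 to 870720 to 1388994 CPM. As shares, libraries of P6 and P10 overlapped, and so did those of P10 and P14. In this fit 21.4% of genes were called higher and 32.6% lower, and the median gene moved by -0.31. Of the calls 39.72% were higher, or 50.91% after quantile normalization.

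Gpd1 was low in all rods. It read 1.43 and 0.697 CPM at P2 and 0.187, 0.247, 0.305 and 0 CPM at P28. In the rod age fit only P2 replicate 1 and P4 replicate 1 (1.22 CPM) reached 1 CPM. Gpd1 thus passed the filter through young rods alone, which favoured a fall, and its p-values there are not read as support. The fitted change over the range was -0.83 ± 0.19 (limma, adjusted p = 0.000592), short of a fold of 2, while the P28 mean CPM was 17.3% of that at P2. With pseudocounts of 0.5 and 0.1 the change was -1.24 and -2.25, and the gene was called. Under quantile normalization it was -0.04, with an adjusted p of 0.874, so its size depends on the pseudocount and the scaling. P5 rods, at 3.14 ± 0.539 CPM, were 3.69 times P4 and 4.54 times P6 for Gpd1, whereas for Ppargc1a they held 48.1% of P4 and 48.2% of P6. Age and series cannot be told apart in P5.

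**Figure D2:**
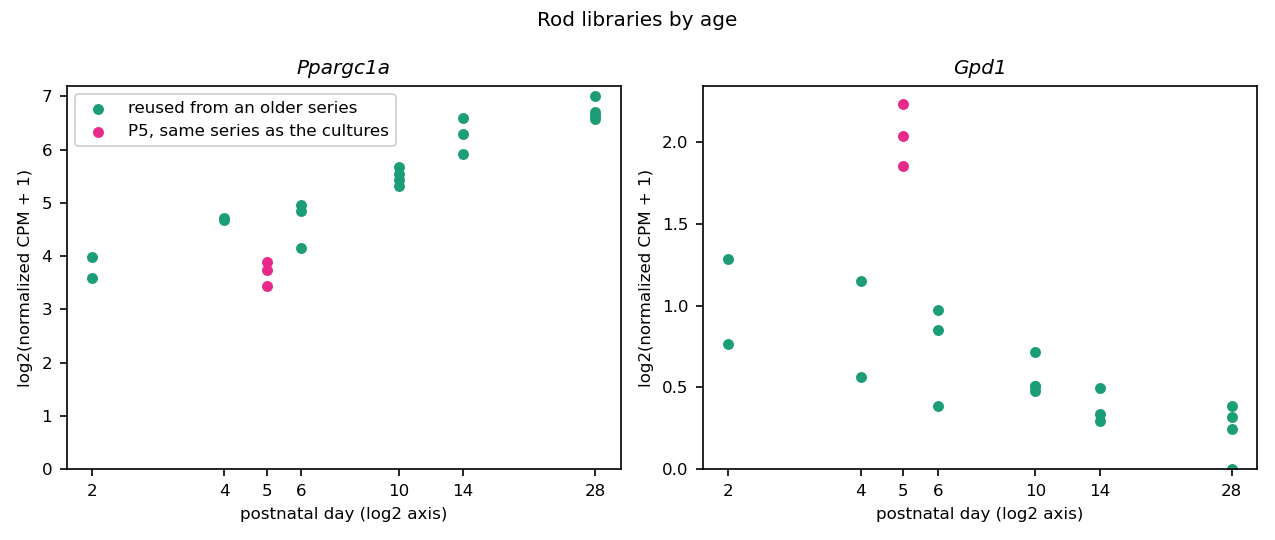
Log2(normalized CPM + 1) of Ppargc1a (left) and Gpd1 (right) is plotted against postnatal day on a log2 axis, 1 dot per rod library, with P5 rods of the same series as the cultures in pink. Ppargc1a climbs from 11.0 to 14.8 CPM at P2 to 94.7 to 128 CPM at P28, and the P5 libraries lie off both series.

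Relatives of the 6 genes did not all share their pattern. Among uncoupling proteins, Ucp2 read 19.9 ± 1.34, 41.8 ± 1.87, 128 ± 18.4 and 10.4 ± 2.0 CPM in MEF, day 5, day 8 and CiPC (n = 3 each), and it rose from day 5 to day 8 by 1.58 ± 0.10 (limma, adjusted p = 1.06e-06). Ucp3, the muscle form, was 2.87 ± 0.552 CPM at day 8, against group means of 0.209 CPM or less in the 10 other groups (log2 change 1.91 ± 0.14). Cidec, the droplet protein of white fat, was 14.4 ± 1.76 CPM at day 8 and 0.214 ± 0.0216 at day 5 (log2 change 3.66 ± 0.12). Ucp3 and Cidec passed the filter through the day 8 libraries alone, so no p is given for them.

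The elongases showed different orders of level. Elovl4, which makes the very long polyunsaturated fatty acids of photoreceptors, was 39.8 ± 2.97 CPM at day 8 and 2289 CPM in P28 rods, and it rose from day 5 by 2.04 ± 0.08 (limma, adjusted p = 8.1e-08). Elovl2 was 2.15 CPM at day 8 and 285 CPM in P2 rods. Elovl1 was close in MEF, day 5 and day 8, at 86.7, 82.3 and 89.8 CPM, and its day 8 change did not pass the test (adjusted p = 0.0658). Elovl5 was highest in CiPC, at 238 CPM against 86.5 CPM at day 8.

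For the 2 metabolic enzymes, the relatives were present throughout the cultures. Gpd1l, the paralog of Gpd1, was 21, 25.6, 29.1 and 80.9 CPM in MEF, day 5, day 8 and CiPC, and Gpd2, the mitochondrial partner of the glycerol phosphate shuttle, was 42.8, 23.3, 38.1 and 48.3 CPM. Neither reached a fold of 2 between day 5 and day 8. Pck2, the mitochondrial form of PCK1, was 67.4, 67.5, 51.8 and 18.3 CPM in the same order. Ppargc1b, the closest relative of Ppargc1a, was 0.912 ± 0.289 CPM in MEF, 6.00 ± 0.891 at day 8 and 38.0 CPM in P28 rods, and it was called higher at day 5 against MEF (log2 change 1.14, adjusted p = 0.000201) and in the rod age fit (2.70, adjusted p = 0.00218).

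**Figure D3:**
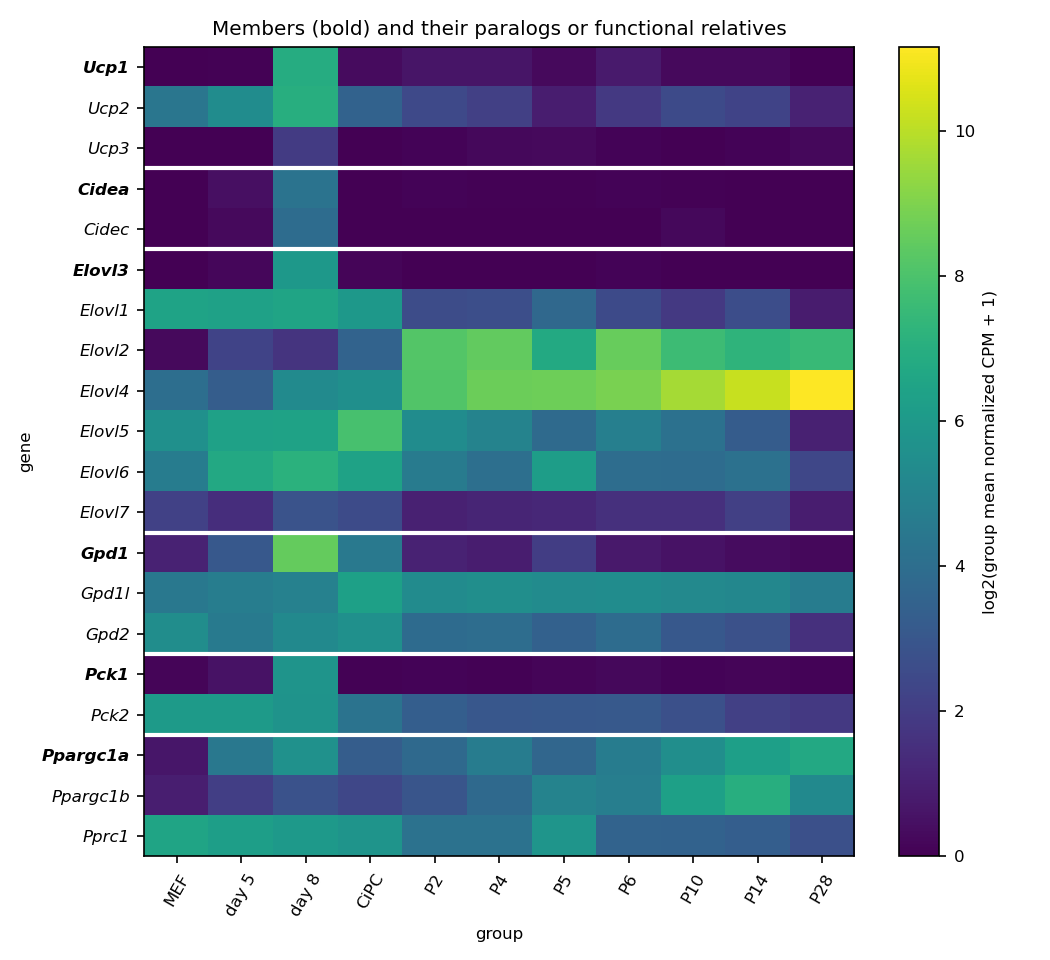
The colour gives log2(group mean normalized CPM + 1) for the 6 genes (bold) and their paralogs or functional relatives (rows) in the 11 groups (columns). Ucp1, Cidea, Elovl3 and Pck1 are bright at day 8 alone, Elovl4 and Elovl2 are bright in rods, and Pck2, Gpd1l and Pprc1 are spread over the cultures.

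Lists of the pathways around these genes, none holding the 6 genes themselves, were read in the same fit of day 8 against day 5. The lists were chosen with earlier results of these data known, and the counts describe them. Over all 13259 genes the median log2 change was 0.00, with 3.61% called higher and 3.01% lower. Of the 198 listed genes, 168 were tested, 59 were called higher and 3 lower, the 3 being Zic1, Myod1 and Myog. Of the 59, 9 were under 1 CPM in every day 5 library and so passed the filter through day 8 alone, namely Alpl, Aqp7, Cidec, Cox8b, Lep, Otop1, Plin5, Retn and Ucp3. They had to differ, and they stand in the counts and medians of their lists, which are not read as support.

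Of 20 thermogenic fat genes tested, 10 were called higher, 3 of them through the filter in this way, and 1 fell, with a median log2 change of 1.25. Plin5, which ties droplets to mitochondria, was 0.326 ± 0.0795 CPM at day 5 and 12.6 ± 2.66 CPM at day 8 (3.34 ± 0.16). The respiratory chain subunit Cox8b reached 10.9 CPM (3.28 ± 0.17), and another, Cox7a1, rose to 16.1 CPM (3.00 ± 0.10). Zic1, a transcription factor known as a brown fat marker in mice, was the gene that fell, from 45.7 ± 11.1 to 15.8 ± 3.08 CPM (-1.46 ± 0.18, adjusted p = 0.000111).

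Lipid droplet genes had 9 of 14 called higher, 2 of them the filter-dependent Cidec and Plin5, with a median of 2.47. Plin1, the droplet coat protein of adipocytes, rose from 12.7 ± 1.12 to 226 ± 32.3 CPM (4.04 ± 0.10, adjusted p = 5.18e-09 by limma). Plin4 rose by 3.69 ± 0.10. In glycerolipid synthesis, the pathway that GPD1 feeds, 6 of 12 genes were called higher, Aqp7 among them (median 1.00). They include Agpat2, which acylates lysophosphatidic acid, from 16.9 ± 0.518 to 303 ± 20.1 CPM (4.08 ± 0.06, adjusted p = 2.75e-10), and the last enzymes of triglyceride synthesis, Dgat2 (3.70 ± 0.07) and Dgat1 (2.01 ± 0.07).

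Fatty acid oxidation had 11 of 17 genes higher and a median of 1.09. Cpt1b, the muscle and brown fat form of the enzyme that admits fatty acids to mitochondria, rose by 2.97 ± 0.12, the peroxisomal enzyme Ehhadh by 2.72 ± 0.10 and the dehydrogenase Acadm by 1.68 ± 0.05. Fatty acid synthesis and elongation, the process of ELOVL3, had 7 of 20 higher and a median of 0.33. The desaturase Scd1 rose from 134 ± 2.48 to 1408 ± 49.0 CPM (3.38 ± 0.04, limma, adjusted p = 1.42e-10) and the carboxylase Acacb by 2.24 ± 0.11.

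Gluconeogenesis, the pathway for which PCK1 is best known, had 1 of 7 tested genes higher, Mdh1 (1.22 ± 0.06), and a median of 0.71. Of the 15 genes of the PGC-1 network, the partners and targets of PPARGC1A, 2 rose, Ppara (1.66 ± 0.11) and Esrrg (1.51 ± 0.26), and the median was 0.16. The uncoupling carriers had 2 of 7 higher, Ucp3 and Ucp2. Of 8 genes for creatine and calcium cycling, routes of heat production without UCP1, 1 was called, Alpl (1.22 ± 0.12), which is among the 9. The cyclic AMP targets had 2 of 12 higher, the immediate early genes Fos (1.47 ± 0.07) and Dusp1 (1.42 ± 0.07), and a median of 0.02. Of 12 targets of PPAR nuclear receptors 7 were called higher, Cidec included (median 1.38), among them the adipokine Adipoq (4.13 ± 0.09) and the acyl-CoA synthetase Acsl1 (3.71 ± 0.07).

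**Figure D4:**
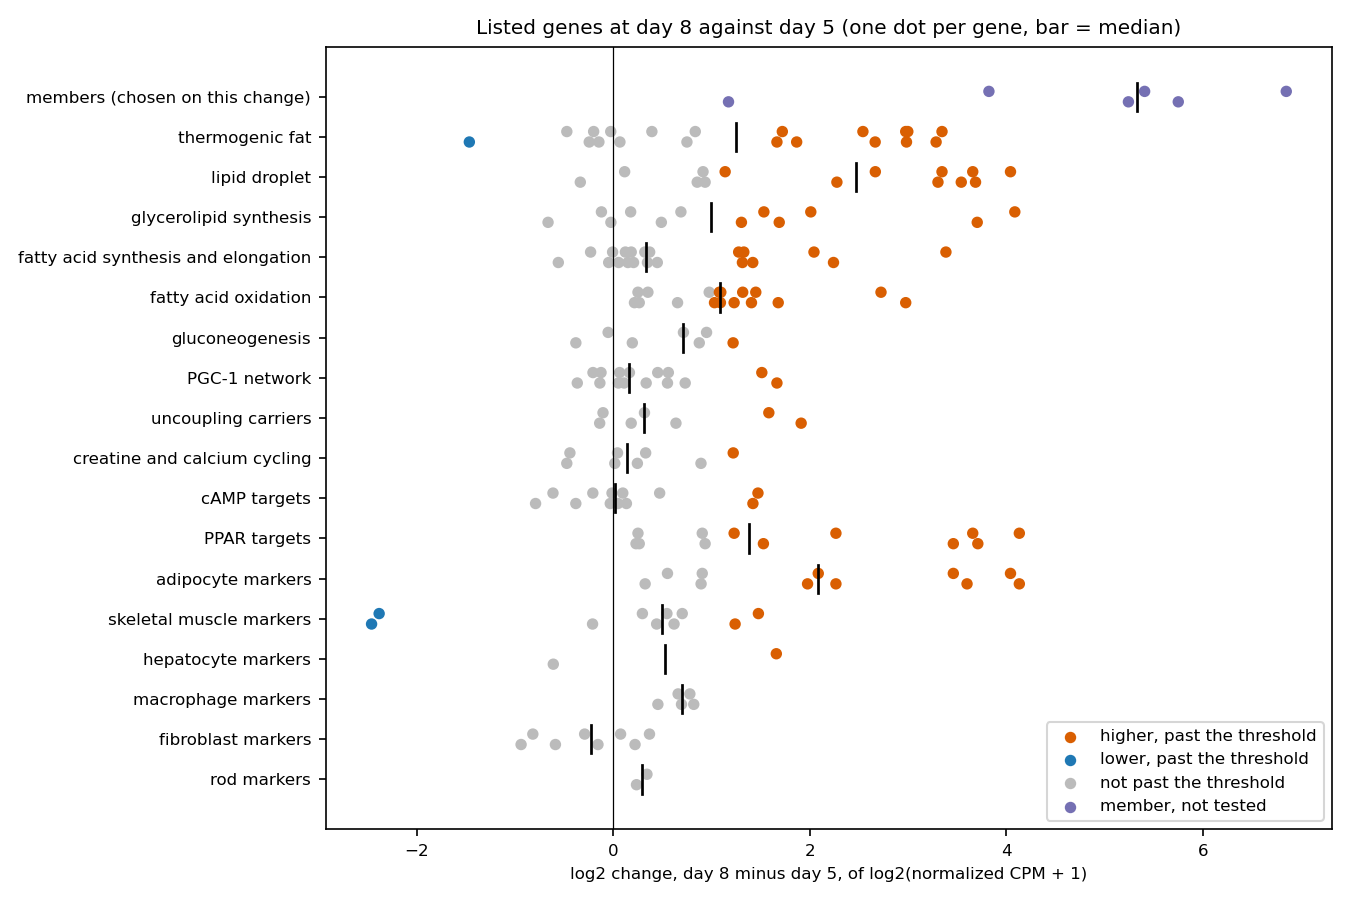
Each dot is 1 tested gene of a list (rows), placed by its log2 change of day 8 minus day 5 on the log2(CPM + 1) scale; colours give the call and bars give list medians. Medians run from 2.47 for lipid droplet genes to 0.02 for cyclic AMP targets and -0.22 for fibroblast markers; the 6 genes in the top row were chosen on this change.

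At day 5 against MEF, where 14.7% of genes were called higher and 28.4% in either direction, 9 of 11 PPAR targets and 8 of 9 adipocyte markers tested were already higher. Of the 56 listed genes called higher there, 12 were under 1 CPM in every MEF library and passed the filter through day 5 alone, 3 of the adipocyte markers and 2 of the PPAR targets among them. Thermogenic fat genes split, with 6 of 17 higher, 3 of these through the filter, and 3 lower. Ppara and Plin1, with log2 changes of 1.71 and 3.72, were among those 12. Pparg, the master regulator of adipocytes, was 0.886 ± 0.142 CPM in MEF, with 1 library above 1 CPM, and 21.2 ± 1.78 CPM at day 5 (3.55). From day 5 to day 8 Pparg changed by 0.55 ± 0.08, under a fold of 2. Prdm16, the regulator of brown fat identity, was 4.5, 9.97, 8.07 and 0.942 CPM in MEF, day 5, day 8 and CiPC. Pparg, Prdm16 and the genes named in the comparison of day 5 were chosen after their values were seen.

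In CiPC against day 8, where 16.6% of genes were called lower and 31.8% in either direction, 13 of 14 lipid droplet genes, 16 of 21 thermogenic fat genes, 13 of 17 fatty acid oxidation genes and 11 of 12 PPAR targets were called lower. Of the listed genes 177 were tested, of which 96 were called lower and 22 higher. Of the 96, 28 were under 1 CPM in every CiPC library and passed the filter through day 8, Plin1 (-7.72) among them. Agpat2 was at 7.16 ± 0.437 CPM in CiPC and Scd1 at 83.4 ± 1.34 CPM. In CiPC against MEF, where 16.5% of genes were called higher and 33.7% in either direction, fatty acid synthesis and elongation had 7 of 19 genes higher. Of these, 1 passed the filter through the CiPC libraries alone. Fatty acid oxidation had 0 of 16 called by limma, with 11 at an unadjusted p under 0.05, a level met by 11103 of all 13719 genes tested. In the rod age fit, where 54% of genes were called, the PGC-1 network had 4 of 14 genes higher (Ppard, Sirt3, Esrrg and Ppargc1b) and 4 lower (Tfam, Sirt1, Pprc1 and Perm1), named after their values were seen.

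Adipocyte markers also had their highest sum at day 8, and some of their rise came by day 5. At day 5 against MEF 8 of 9 tested were already called higher, beside 14.7% of all genes. Ucp1, Cidea, Elovl3 and Pck1 were still under 1 CPM at day 5, as were the adipocyte markers Retn and Lep. The 12 adipocyte markers, 11 of them in the table, had summed levels of 47.2 to 55.5 CPM in MEF. These reached 1543 to 1572 CPM on day 5 and 5466 to 5931 CPM on day 8, and were 32.6 to 36.1 CPM in CiPC and 10.6 to 32.9 CPM in rods. Lpl alone had a mean of 1149 CPM on day 5. The defining markers Adipoq, Retn, Plin1 and Lep had group means under 0.1 CPM in MEF and in CiPC, and all 11 had group means above it at day 5 and day 8. From day 5 to day 8, 7 of 11 were called higher, Retn and Lep through the filter (median 2.09), among them Adipoq, from 2.67 ± 0.383 to 63.1 ± 1.29 CPM, and Fabp4, by 3.46 ± 0.06 to 2526 CPM. The log2 change of Retn was 3.6 ± 0.14. Plin1 stands in the droplet list as well, and Adipoq and Fabp4 among the PPAR targets. The part of adipocyte-like cells in the values of the 6 genes was not tested.

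Skeletal muscle also makes Ppargc1a, Cox8b and Cpt1b. Its 10 markers held a summed 533 to 589 CPM in MEF, 495 to 518 CPM on day 5, 520 to 598 CPM on day 8 and 4.14 to 5.69 CPM in CiPC. Of the 10, Ckm (1.48) and Myl1 (1.24) rose from day 5 to day 8 while the myogenic factors Myod1 (-2.46) and Myog (-2.38) fell. Fibroblast markers (8 genes) summed to 27472 to 31993 CPM at day 8 and to 185 to 213 CPM in CiPC. Against day 5, 0 of 8 were called by limma at day 8, with 6 at an unadjusted p under 0.05. In that comparison 7457 of all 13259 genes tested had such a p. Macrophage markers (7 genes) summed to 206 to 225 CPM in MEF. Day 5 held 10.3 to 11.4, day 8 held 18.8 to 21.3 and CiPC 55.7 to 58.1 CPM, and 0 of 5 tested were called by limma at day 8 against day 5, with 5 at an unadjusted p under 0.05. Of 10 hepatocyte markers, which bear on Pck1 as a liver gene, 3 were in the table, and they summed to 50.7 to 54.5 CPM at day 8 and 118 to 144 CPM in CiPC, with Alb listed at 0 in CiPC and Ttr at a mean of 0.0692 CPM at day 8. Of the 2 tested at day 8 against day 5, the iron carrier Trf rose (1.66 ± 0.10). The other, albumin (Alb), was 8.02 ± 0.799 CPM at day 5 and 4.90 ± 0.461 CPM at day 8, a log2 change of -0.61 ± 0.11 that was short of a fold of 2 (limma, adjusted p = 0.00163). Rod markers (8 genes) summed to 4.68 to 6.17 CPM at day 8, against 4.03 to 4.65 CPM in MEF, in cells labelled as photoreceptor intermediates. Of the 2 tested against day 5, 0 were called by limma and 0 had an unadjusted p under 0.05. The part of these cell types in the values was not tested.

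Across the 11 group means, as a description of groups that share cultures and series, Ucp1, Elovl3, Pck1 and Cidea correlated with each other at Pearson r of 0.986 to 0.999. Their means were under 1 CPM in every group but day 8, on which several genes were chosen, so the day 8 point alone sets these r near 1. Gpd1 correlated with these 4 at 0.838 to 0.868 and Ppargc1a at 0.222 to 0.236, and the r between Gpd1 and Ppargc1a was 0.0001. Among genes reaching a group mean of 10 CPM, those most like Ucp1 were Adtrp (0.992), Adig (0.989) and Orm1 (0.987). Orm1, Acot5 and Plin5 were most like both Pck1 and Cidea, and Adig, Orm1 and Acot5 were most like Elovl3. Each of these genes exceeded 12 CPM at day 8 and stayed under 0.5 CPM in every other group, so day 8 alone sets their r as well.

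Gpd1 had Rasd1 (0.980), Qdpr (0.962) and Mpc1 (0.956) as its closest genes. Mpc1, a subunit of the mitochondrial pyruvate carrier, was 110 CPM at day 8, 56.8 CPM in CiPC and 21.5 to 33.1 CPM elsewhere in MEF, day 5 and rods. Those most like Ppargc1a were Add3 (0.966), Gpr155 (0.965) and Tmem8 (0.936). Add3, an adducin of the membrane skeleton, was 18.5 CPM in MEF, 193 CPM at day 8, 49.2 CPM in CiPC and 481 CPM in P28 rods.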

How the data were processed

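RNA sequencing values of 33 libraries in 11 groups were analysed, grouped by the labels; 3 further listed samples, rods of P3, were not analysed here. Transcripts were quantified by kallisto, per the submitters' processing notes. Kallisto's version, index and genome build, the library's strandedness and the scaling between libraries stay not given in the sources used here. Reads of overlapping genes may therefore be mixed. What the authors deposited is 1 table of normalized CPM, a signal per gene and library. The values are not whole, so counts, the depth per sample and its precision are unknown. Every value column of the table entered the work. GENCODE M21 identifiers matched 99.05% of genes and gave coordinates and merged exon lengths.

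Values were analysed as log2(CPM + 1), so folds of genes near 0 are understated. Genes with at least 1 CPM in at least 3 libraries of a fit (2 where the smallest group has 2) were fitted with limma 3.58.1 in R 4.3.3, with moderated variances and a mean trend, in fits of the groups compared only. Genes were called at a Benjamini-Hochberg adjusted p under 0.05, over all genes of the fit, and a fold of at least 2. Rod age was a slope on log2 postnatal day over all rods but those of P5. The procedure was run on simulated data with normal noise, with changes planted only in genes well above the filter. Of 3-fold changes, 88.1% were recovered in the rod age fit, with 3 false calls. The other fits recovered 97% to 100%, with 0 or 1 false calls. Genes near 0, such as Ucp1, Elovl3, Pck1 and Cidea outside day 8, were not covered. The 6 genes, the 17 gene lists and the tests were chosen with earlier results of these data known. Named from each list were up to 3 genes with the largest called change at day 8 against day 5 and those that went against the list, with the relatives of the 6 genes and, for each of these, the 3 genes most like it over group means. For 1 listed gene whose symbol is repeated, the first row was used. Promoter windows came from RefSeq (GRCm38.p6) and were searched for exact motif matches on both strands. Alternatives covered the pseudocount, the filter, the scaling, the variance trend, the fold rule, a block on the replicate number and each library left out.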

Additional observations from a re-analysis of the deposited data

Results flagged for a closer look

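Over the 6 genes in rod groups of 4 libraries, 11 sets of values were examined and 4 had a library far from the other 3 by Dixon's criterion, which chance alone meets in about 1 in 20 sets of spread values. Gpd1 was 0.645 CPM in P10 replicate 4, against 0.392 to 0.424 CPM in the other P10 libraries. The other 3 were single libraries with a trace where the rest were listed at 0, so they meet the criterion by construction and that rate does not apply to them. Cidea was 0.0658 CPM in P28 replicate 1, Elovl3 was 0.031 CPM in P10 replicate 4 and Ucp1 was 0.0707 CPM in P28 replicate 2. All 4 values lie below the filter of 1 CPM.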

How the results depend on the processing

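With the adjusted p alone and no fold threshold, called genes numbered 11010 at day 5 against MEF (3860 with it), 6575 at day 8 against day 5 (877), 10721 at day 8 against MEF (4345), 10360 in CiPC against day 8 (4392), 10931 in CiPC against MEF (4626) and 11609 in CiPC against P5 rods (5865). Both Gpd1 and Ppargc1a, 2 genes instead of 1, were then called in CiPC against P5 rods, as were 11609 of the 13546 genes tested. Both were also called in the rod age fit, where 9982 of 13884 genes tested had an unadjusted p under 0.05 in limma. In the age fit 2 were also called at pseudocounts of 0.5 and 0.1, where the change of Gpd1 was -1.24 and -2.25. At the main setting 54% of genes were called in that fit. These counts are not read as a result about the 2 genes. The cause was not tested. No log2 change of the 6 genes took the opposite sign under the alternatives run. The share of calls that were higher did cross 50% under quantile normalization, from 51.74% to 48.11% at day 5 against MEF, from 51.58% to 48.45% at day 8 against MEF, from 47.88% to 51.1% in CiPC against day 8, from 57.37% to 46.73% in CiPC against P5 rods and from 39.72% to 50.91% in the age fit, where the median of all genes went from -0.31 to 0.05. It also crossed at a pseudocount of 0.1 at day 8 against day 5 (54.5% to 49.54%), under median-of-ratios scaling in CiPC against MEF (48.94% to 50.62%) and with no fold threshold in CiPC against P5 rods (to 49.33%).

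Leaving out each library in turn gave 3870 to 3885 called genes at day 5 against MEF, 866 to 924 at day 8 against day 5, 4356 to 4398 at day 8 against MEF, 4405 to 4456 in CiPC against day 8, 4626 to 4683 in CiPC against MEF, 5825 to 5924 in CiPC against P5 rods and 7124 to 7866 in the age fit, and it changed no call of the 6 genes that were tested. Gpd1 failed the filter and was not tested in the age fit without P2 replicate 1 or P4 replicate 1, which leaves 16 of 18 such fits. Same-numbered libraries did not deviate together (correlations of -0.443 to 0.211), so the numbers were not taken as pairs. With the replicate block, the counts were 3861, 879, 4345, 4394, 4625, 5866 and 7780 in that order, with the same number of the 6 genes called in each. Depth is unknown, so differences between values under 1 CPM could not be judged.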
